A study of Mus musculus with 9 samples.

Results

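The nucleolar ribosome biogenesis genes are 35 genes whose products copy, modify, cut and assemble ribosomal RNA, and they were followed through the trunk epidermis of newborn mice. A gene was taken where a probe set of the array names it as its only gene, and the brightest of its probe sets over all arrays stood for it. That gave values for 34 of the 35 genes, among 18193 genes measured in all. Mrto4, a large subunit assembly factor, was left out because its probe set also names 2 pseudogenes.

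In the nucleolus, RNA polymerase I makes one long precursor RNA. Small nucleolar ribonucleoprotein particles (snoRNPs) modify it, the box C/D kind by methylation of ribose and the box H/ACA kind by conversion of uridine to pseudouridine. A series of assembly factors then cuts and folds it into the small and the large ribosomal subunit. In skin the pathway is most active in growing basal keratinocytes, and the transcription factor Myc is a known activator of many of its genes.

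The series held 4 arrays labelled Alox12b-KO and 5 labelled wildtype, labelled as biological replicates and taken from pups killed at birth. Alox12b encodes the 12R-lipoxygenase that oxidises linoleate in epidermal acylceramides, and its loss causes ichthyosis. The knockout pups came from heterozygous parents, the wildtype labels name the strain 129S6, and the labels name no strain for the knockout and do not say whether the groups were littermates. All epidermal sheets were lifted off after 30 seconds in saline at 56 °C, and total RNA was read on Affymetrix Mouse Genome U430 2.0 arrays as log2 values. Below, a level is a log2 value, a difference is knockout minus wildtype on that scale, and no level is set against that of another gene, because probe sets differ in brightness.

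Alox12b itself read 11.12, 10.84, 11.60 and 10.97 on the arrays labelled knockout 1 to 4 and 10.56 to 11.32 on the wildtype arrays, a difference of 0.23 (limma adjusted p of 0.547), so the level of the targeted gene did not separate the groups. Which part of the gene is deleted is not given in the labels, and a probe set outside it checks nothing. Knockout below therefore means labelled so.

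Knockout arrays 3 and 4 stood apart as wholes, with an SD over all 45037 probe sets of 2.05 and 2.03, where the remaining 7 arrays had 2.14 to 2.24. Xist was at 9.99 or above on all 4 knockout arrays and on wildtype array 4 and at 4.32 or below on the other wildtype arrays, so sex and genotype cannot be told apart beyond that 1 array. Keratinocyte identity was clear on all arrays, with Krt10 between 14.05 and 14.30 and Lor between 14.22 and 14.46.

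None of the 34 members differed between knockout and wildtype past the threshold, an adjusted p of 0.05 in limma over all 18193 genes, whereas 1.24% of all genes did, 0.511% higher and 0.731% lower. At an unadjusted p under 0.05 there were 4 members, or 11.8%, all lower: Mybbp1a, Npm1, Dkc1 and Pes1. The same mark was met by 17.8% of all genes, 7.08% higher and 10.7% lower, so the members' share was smaller than the background in both directions together and close to it in the lower one. Among the 9335 genes with a mean level of 4 or over, a closer background because Polr1b alone of the members is dimmer, 6.94% were higher and 18.3% lower at this mark. The median difference was -0.04 over the members, 0.02 over all genes and -0.10 over those brighter genes, with 20 of 34 members negative. The 95% interval lay within 1 of zero on the log2 scale, a 2-fold change either way, for 27 members. It reached further for the other 7, so these data do not limit their difference to less than 2-fold. In bulk tissue, fewer cells of a type and less RNA per cell cannot be told apart, which applies to all values below.

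**Figure D1:**
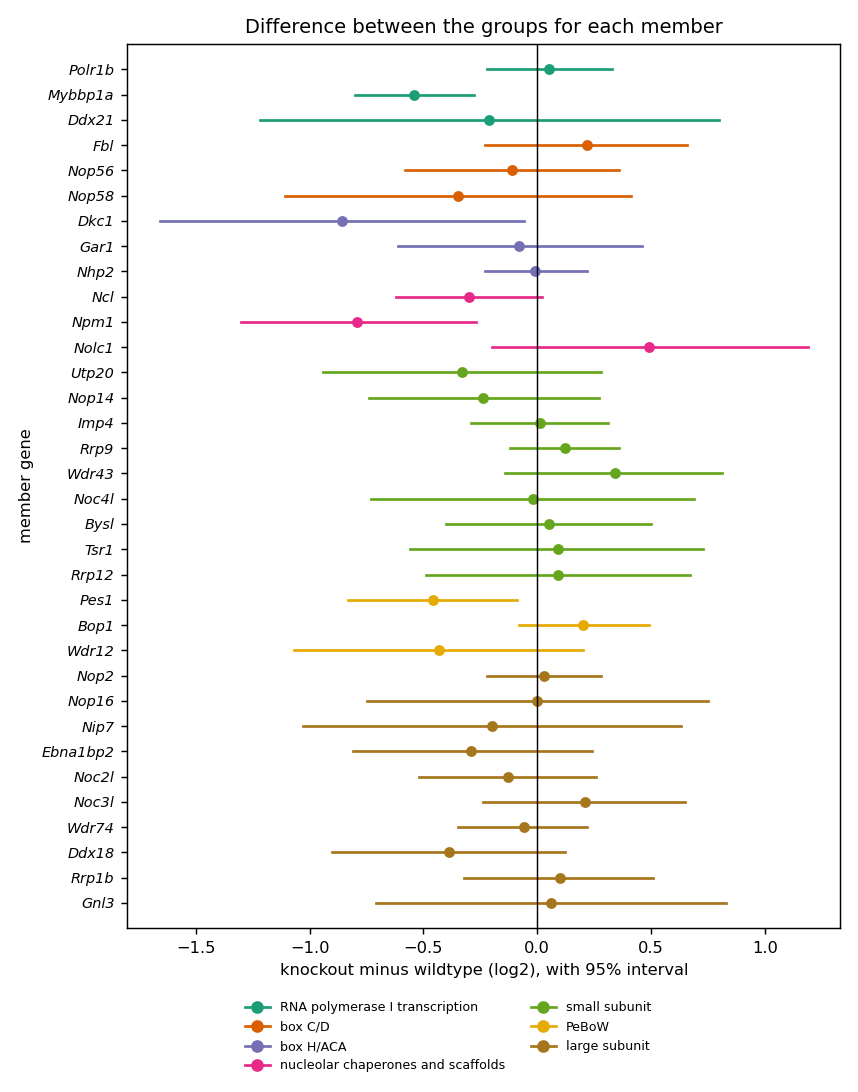
Difference of each of the 34 members (knockout minus wildtype, log2, horizontal axis) with its 95% interval from limma, coloured by role. The intervals of Mybbp1a, Npm1, Dkc1 and Pes1 lie below 0, and no adjusted p was under 0.0561.

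The knockout arrays differed widely among themselves. The SD was larger in knockout than in wildtype for 30 of 34 members (88.2%), against 60.6% of all genes. The median member had an SD of 0.53 over the 4 knockout arrays and 0.18 over the 5 wildtype arrays, against 0.24 and 0.20 for the median of all genes. On knockout arrays 1 and 2 the members lay high, with a median gap to the wildtype mean of 0.21 and 0.22. On knockout arrays 3 and 4 they lay low, at -0.56 and -0.45. The wildtype arrays ranged from -0.10 to 0.18. The knockout group thus straddled the wildtype group. The median gap of all genes was -0.02, 0, 0.03 and 0.01 on knockout arrays 1 to 4. For genes with a mean level of 4 or over it was -0.02, -0.05, -0.14 and -0.21, so these too lay low on arrays 3 and 4, though by less.

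Each knockout array was then placed against the range of the 5 wildtype arrays, a count chosen after the values had been seen. On knockout array 3, 27 of 34 members (79.4%) lay below every wildtype array, against 25.6% of all genes. On knockout array 4 it was 20 members (58.8%), against 28.7% of all genes. On knockout array 1, 16 members (47.1%) lay above every wildtype array, against 15.6% of all genes, and on knockout array 2 it was 18 (52.9%), against 18.7%. Of the genes with a mean level of 4 or over, 38.7% on array 3 and 45.6% on array 4 lay below the wildtype range, and 17.1% on array 1 and 17.4% on array 2 lay above it.

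**Figure D2:**
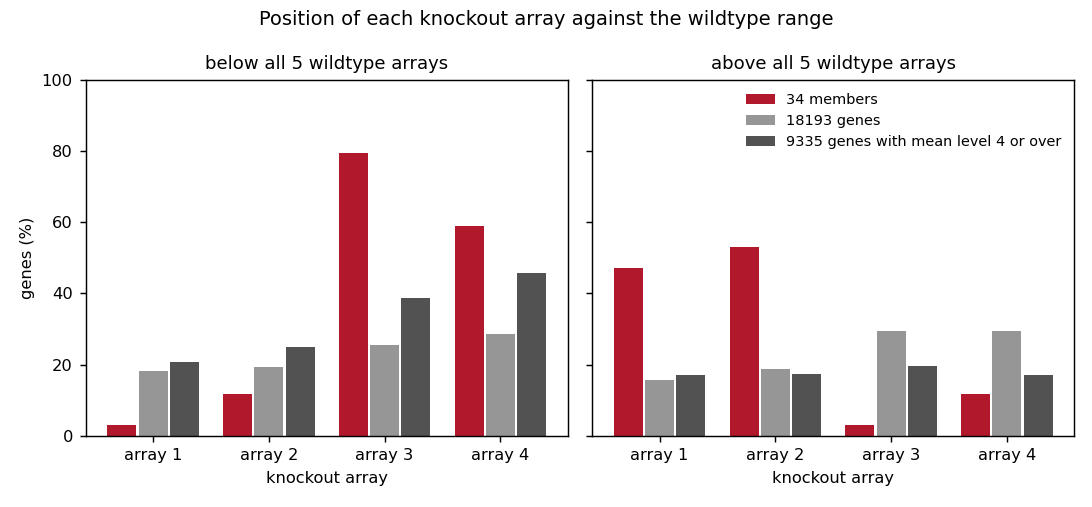
Share of genes (vertical axis, %) that lie below (left) or above (right) all 5 wildtype arrays on each knockout array, for the 34 members, all 18193 genes and the 9335 genes with a mean level of 4 or over. The members exceed both backgrounds on the low side on arrays 3 and 4 and on the high side on arrays 1 and 2.

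For 29 of the 34 members, knockout arrays 1 and 2 both read higher than arrays 3 and 4, which held for 25.6% of all genes and 41.4% of those with a mean level of 4 or over. The exceptions were Noc3l, Nolc1, Polr1b, Rrp1b and Rrp9. Arrays 3 and 4 were both below every wildtype array for 18 members, or 52.9%, against 16.7% of all genes. Arrays 1 and 2 were both above every wildtype array for 14 members, or 41.2%, against 9.3% of all genes. Both at once held for 7 members, Ddx21, Gar1, Gnl3, Nip7, Noc4l, Rrp12 and Tsr1, and for 0.775% of all genes. Gar1, Gnl3 and Rrp12 have only 1 probe set, and no other probe set of Ddx21, Nip7, Noc4l or Tsr1 showed both at once. Of genes with a mean level of 4 or over, 29.3% had arrays 3 and 4 both below every wildtype array. Arrays 1 and 2 were both above it for 12.2% of them, and both at once held for 1.5%. The 4 knockout arrays carry the same label, and no test was made between them.

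Arrays 3 and 4 also have the narrower whole-array spread, so the deposited scale moves with this order. With quantile normalization, which gives all arrays the same distribution, the median gap of the members was 0.22, 0.25, -0.32 and -0.18 on knockout arrays 1 to 4. Arrays 3 and 4 were then both below every wildtype array for 14 members, against 12.9% of all genes, and arrays 1 and 2 both above it for 17, against 10% of all genes. The order with arrays 1 and 2 both above 3 and 4 then held for 19 members and for 22.2% of all genes. Of genes with a mean level of 4 or over, 26.1% then had this order. Arrays 3 and 4 were both below every wildtype array for 17.5% of them.

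**Figure D3:**
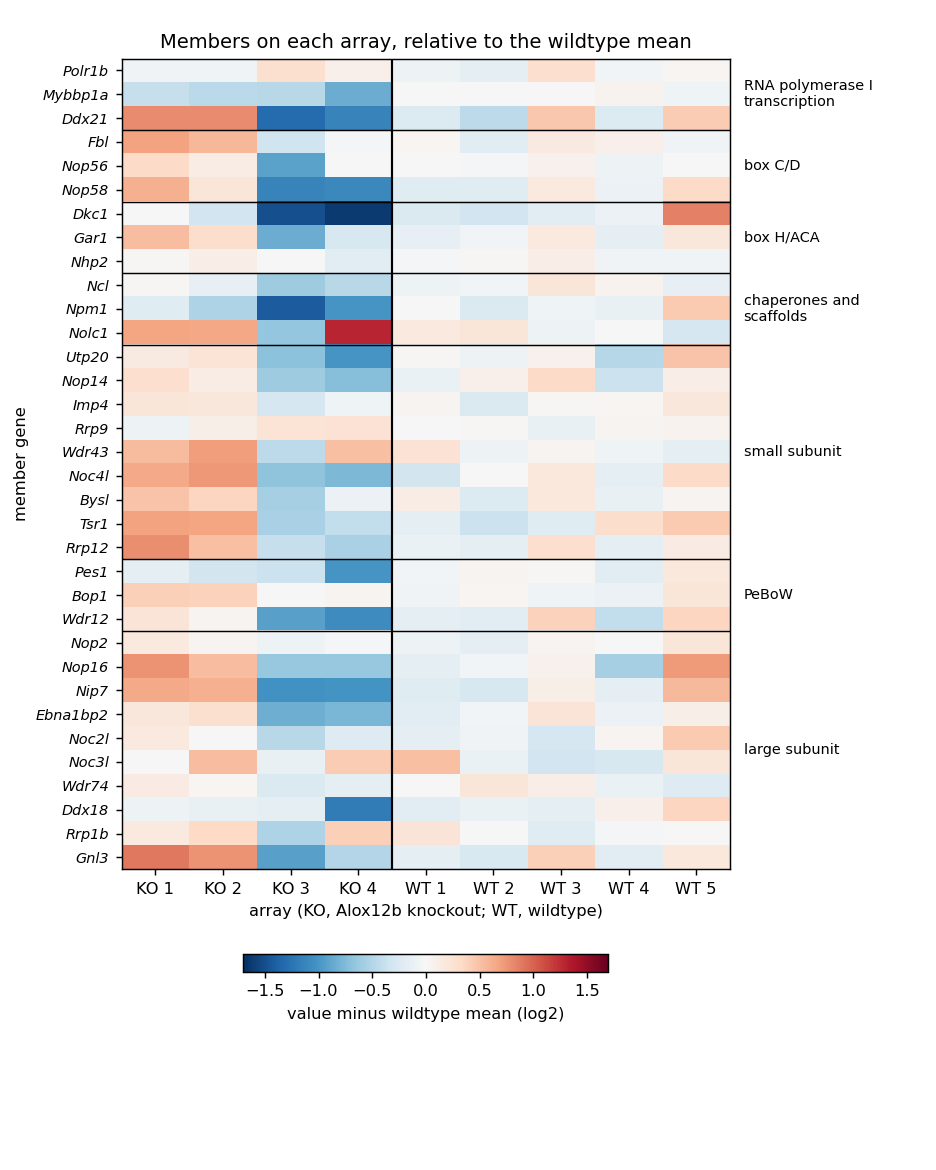
Value minus wildtype mean (colour, log2) of the 34 members (rows, by role) on the 4 knockout and 5 wildtype arrays (columns). Most rows are red on knockout arrays 1 and 2 and blue on arrays 3 and 4, while Nolc1 on knockout array 4 is red.

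RNA polymerase I transcription was represented by 3 members. Mybbp1a, a nucleolar protein that takes part in ribosomal RNA synthesis and binds transcription factors such as Myb, read 7.96, 7.89, 7.88 and 7.51 on knockout arrays 1 to 4. It read 8.36, 8.34, 8.34, 8.41 and 8.28 on wildtype arrays 1 to 5. Every knockout array was lower than every wildtype array, and Mybbp1a was the only member of the 34 (2.94%) whose groups did not overlap, where 8.28% of all genes did not. Its difference was -0.54 with an SE of 0.12 (95% interval -0.80 to -0.28, limma adjusted p of 0.0561), which did not pass. Its dimmer probe set differed by -0.28. The difference ran from -0.60 to -0.28 over the alternative settings. Its limma adjusted p ran from 0.00609 to 0.539 over them, and was 0.0498 with the filter on mean level and 0.00609 with array weights, so the call depended on the setting. On wildtype array 4, the one wildtype array with high Xist, Mybbp1a was at 8.41, also above all knockout arrays. Mybbp1a lies on chromosome 11, as do the members Npm1, Pes1, Nhp2 and Tsr1. The labels name no strain for the knockout, so a strain difference near these genes cannot be told apart from genotype. It was not tested.

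Ddx21, an RNA helicase of the nucleolus, had the widest spread of all members in knockout, with an SD of 1.17. It read 6.95 and 6.95 on knockout arrays 1 and 2, and 4.84 and 5.01 on arrays 3 and 4. The wildtype arrays lay between, from 5.70 to 6.61, so the group difference of -0.21 (limma adjusted p of 0.836) joins 2 high and 2 low arrays. Its other probe set read 6.37, 6.45, 5.47 and 5.51 on knockout arrays 1 to 4 and 5.00 to 5.76 in wildtype, so arrays 1 and 2 were high there too, arrays 3 and 4 lay within the wildtype range, and the difference was 0.73. Polr1b, the second largest subunit of RNA polymerase I, read 3.05 to 3.5 over all arrays, and its groups overlapped.

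The box C/D proteins are the methyltransferase fibrillarin (Fbl) and its partners Nop56 and Nop58. Fbl read 9.05, 8.93, 8.03 and 8.34 on knockout arrays 1 to 4 and 8.18 to 8.52 in wildtype. Arrays 1 and 2 were above the wildtype range and array 3 below it, and the difference of 0.22 ± 0.20 (SE) had a limma adjusted p of 0.589 (0.0354 with array weights, which give arrays 3 and 4 little weight). The more specific probe set of Fbl gave -0.09, so its direction was not settled. Nop58 read 7.82, 7.42, 6.07 and 6.11 on knockout arrays 1 to 4 against 7.01 to 7.54 in wildtype. Nop56 was at 8.14, 7.95, 6.91 and 7.82 on knockout arrays 1 to 4, against 7.74 to 7.89 in wildtype.

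Of the box H/ACA proteins, Dkc1 encodes dyskerin, the pseudouridine synthase itself, and lies on the X chromosome. It read 6.86, 6.53, 5.37 and 5.23 on knockout arrays 1 to 4. On wildtype arrays 1 to 5 it read 6.61, 6.53, 6.68, 6.76 and 7.71. Arrays 3 and 4 were low and wildtype array 5 was high, while knockout arrays 1 and 2 lay inside the wildtype range. The difference of -0.86 was the largest of the 34 in size (95% interval -1.66 to -0.06, limma adjusted p of 0.252). Its next probe set, at a mean of 5.34, differed by 0.04. Gar1 read 7.43, 7.21, 6.07 and 6.64 on knockout arrays 1 to 4 against 6.76 to 7.10 in wildtype. Nhp2 spanned 9.91 to 10.20 over the knockout arrays and 10.03 to 10.20 over the wildtype ones, with a 95% interval of its difference from -0.23 to 0.22.

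The chaperones and scaffolds of the nucleolus differed among themselves. Nucleophosmin (Npm1), an abundant chaperone of ribosomal proteins and histones, read 10.27, 9.96, 9.07 and 9.48 on knockout arrays 1 to 4 and 10.48, 10.24, 10.41, 10.36 and 10.93 on wildtype arrays 1 to 5. Only knockout array 1 reached into the wildtype range, above wildtype array 2. The difference was -0.79 ± 0.23 (SE), with a limma adjusted p of 0.132, and its next probe set gave -0.63. Nucleolin (Ncl), which binds precursor RNA, read 9.20 and 9.33 on knockout arrays 3 and 4, below the wildtype range of 9.66 to 10.01, and 9.82 and 9.66 on arrays 1 and 2. Nolc1, a scaffold that carries snoRNPs, went another way. It read 6.23, 6.22 and 6.86 on knockout arrays 1, 2 and 4, above the wildtype range of 5.28 to 5.76, and 4.90 on array 3, with a difference of 0.49 (limma adjusted p of 0.435). Its next probe set, at a mean of 3.53, gave -0.42.

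**Figure D4:**
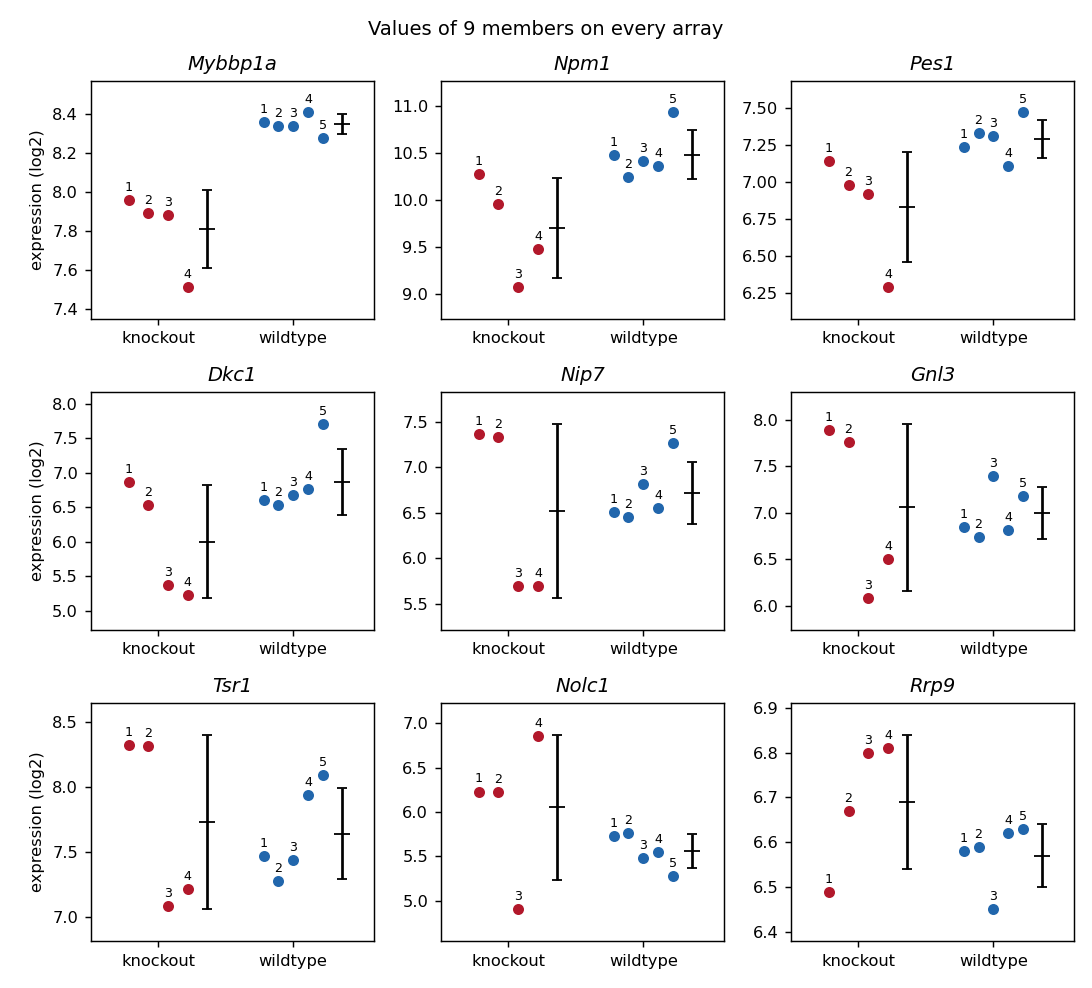
Level (log2, vertical axes) of 9 members on every array; points are numbered by replicate, and the bar beside each group is its mean ± SD (n = 4 knockout, n = 5 wildtype). Mybbp1a is lower on all knockout arrays, Nip7, Gnl3 and Tsr1 split into high arrays 1 and 2 and low arrays 3 and 4, and Nolc1 and Rrp9 do not follow that split.

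The 9 small subunit members had a median difference of 0.05, and 0 passed. Most act in the early precursor complex known from yeast as the small subunit processome. Wdr43, one of its scaffold proteins, read 8.22, 8.39, 7.24 and 8.19 on knockout arrays 1 to 4 against 7.52 to 7.92 in wildtype. Arrays 1, 2 and 4 were above the wildtype range and array 3 below it, with a difference of 0.34 ± 0.22 (SE) and a limma adjusted p of 0.435. The mean over the probe sets of Wdr43 gave -0.08. Tsr1, a late factor of the small subunit, read 8.32 and 8.31 on knockout arrays 1 and 2 and 7.09 and 7.22 on arrays 3 and 4, on either side of a wildtype range of 7.28 to 8.09. Rrp12, which in yeast serves export of both subunits, read 5.98, 5.70, 4.80 and 4.64 on knockout arrays 1 to 4 and 5.02 to 5.48 in wildtype. Rrp9, a protein of the U3 particle, ran against this order, at 6.49 and 6.67 on knockout arrays 1 and 2 and 6.80 and 6.81 on arrays 3 and 4. Its wildtype range was 6.45 to 6.63. Utp20, Nop14, Imp4, Noc4l and Bysl had differences from -0.33 to 0.05, and arrays 1 and 2 both exceeded arrays 3 and 4 for each of them.

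Pes1, Bop1 and Wdr12 form the PeBoW complex of large subunit RNA maturation, and their differences did not run one way. Pes1 read 7.14, 6.98, 6.92 and 6.29 on knockout arrays 1 to 4, and 7.24, 7.33, 7.31, 7.11 and 7.47 on wildtype arrays 1 to 5. Knockout array 1 lay just above wildtype array 4, and the other knockout arrays lay below all wildtype arrays. The difference was -0.46 ± 0.17 (SE) with a limma adjusted p of 0.203. Its other probe set, at a mean of 3.38, differed by 0.06. Bop1 read 5.85, 5.84, 5.44 and 5.49 on knockout arrays 1 to 4 against 5.35 to 5.65 in wildtype, and differed by 0.20. Wdr12 read 5.72, 5.54, 4.58 and 4.43 against 5.08 to 5.89, and differed by -0.43.

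The 10 measured large subunit members had a median difference of -0.03, and 0 passed. Ddx18, an RNA helicase whose yeast counterpart is Has1, had the smallest unadjusted p of the group. It read 5.34, 5.30, 5.26 and 4.24 on knockout arrays 1 to 4 and 5.24, 5.32, 5.26, 5.51 and 5.80 in wildtype, so array 4 alone stood low. Its difference was -0.39 (limma adjusted p of 0.395), and its next probe set gave -0.64. Nip7, a pre-ribosome binding protein, read 7.37 and 7.33 on knockout arrays 1 and 2 but 5.69 and 5.70 on arrays 3 and 4, against 6.45 to 7.27 in wildtype. Gnl3, the GTPase nucleostemin, read 7.89, 7.76, 6.08 and 6.50 on knockout arrays 1 to 4 against 6.74 to 7.40. Both thus straddled the wildtype range, and their differences of -0.20 and 0.06 average over that. Nop2, a methyltransferase of large subunit RNA, varied least in knockout, at 6.47 to 6.71 against 6.40 to 6.75. Nop16, Ebna1bp2, Noc2l, Noc3l, Wdr74 and Rrp1b had differences from -0.29 to 0.21.

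The 34 members had 70 probe sets, and 24 members had more than 1. The next brightest probe set had the same sign of difference as the brightest for 10 of these 24. It showed knockout arrays 1 and 2 both above arrays 3 and 4 for 18 of the 24. Over the brightest probe sets this order held for 25.6% of all genes and 41.4% of those with a mean level of 4 or over. The sign can differ where a difference is near 0, as for Nop16 at 0 and Imp4 at 0.01, so the counts of 10 and 18 are unlike measures. Both probe sets of a gene were read on the same arrays.

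Promoters are shown as a description, because Myc and its relatives bind the letters CACGTG, the E-box, in many genes of this kind. RefSeq promoter windows of GRCm38.p6 (C57BL/6J), which run from 250 bases before the start of transcription to 50 after it, were found for 31 of the 35 genes. CACGTG, which reads the same on both strands, was in 7 of the 31 (22.6%): Imp4, Mybbp1a, Nop2, Pes1, Tsr1, Utp20 and Wdr43. Of the 14452 tested genes with a window, 10.2% held it. All 7 had knockout arrays 1 and 2 both above arrays 3 and 4, as did 18 of the 23 measured members whose window lacks it. The windows of the 3 with the smallest unadjusted p follow, with the E-box in capitals; position 1 is the first transcribed base. All 3 are on the plus strand: Mybbp1a at chr11:72441077-72441376 with the E-box at positions 41 to 46, Pes1 at chr11:3963725-3964024 with it at 3 to 8, and Wdr43 at chr17:71615965-71616264 with it at 18 to 23.
Mybbp1a: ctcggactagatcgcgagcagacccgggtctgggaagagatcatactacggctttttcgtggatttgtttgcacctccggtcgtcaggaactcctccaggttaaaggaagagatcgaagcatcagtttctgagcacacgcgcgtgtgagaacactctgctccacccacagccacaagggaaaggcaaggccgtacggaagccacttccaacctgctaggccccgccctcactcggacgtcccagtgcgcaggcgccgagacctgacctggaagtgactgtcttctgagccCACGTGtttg
Pes1: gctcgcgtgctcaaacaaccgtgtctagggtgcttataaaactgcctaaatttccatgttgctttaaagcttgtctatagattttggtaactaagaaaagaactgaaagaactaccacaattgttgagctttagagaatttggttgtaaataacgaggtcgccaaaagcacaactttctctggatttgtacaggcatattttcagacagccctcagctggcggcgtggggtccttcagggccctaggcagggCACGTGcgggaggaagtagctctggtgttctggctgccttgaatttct
Wdr43: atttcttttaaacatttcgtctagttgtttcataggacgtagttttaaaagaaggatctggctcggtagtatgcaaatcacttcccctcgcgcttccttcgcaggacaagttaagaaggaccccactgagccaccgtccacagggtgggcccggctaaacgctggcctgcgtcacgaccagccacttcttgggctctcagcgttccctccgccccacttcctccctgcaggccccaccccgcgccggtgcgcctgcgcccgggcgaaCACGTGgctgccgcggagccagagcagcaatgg
In all 3 the letters lie just downstream of the annotated start. A match is a description of letters and not a bound site.

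Myc itself read 8.0, 7.89, 6.89 and 7.30 on knockout arrays 1 to 4 and 7.22, 7.16, 7.65, 7.03 and 7.83 on wildtype arrays 1 to 5. Arrays 1 and 2 were above the wildtype range and array 3 below it, while array 4 lay within it, and the group difference was 0.14 (limma adjusted p of 0.786). Mxd1, an antagonist of Myc at the E-box, read 8.03, 8.0, 8.47 and 7.72 in knockout against 7.30 to 7.57 in wildtype. Its groups did not overlap, but its difference of 0.61 had a limma adjusted p of 0.0809. Mycl differed by -0.88, Mycn by 0.24, Max by -0.07 and Mnt by 0.03, with limma adjusted p values of 0.235, 0.374, 0.840 and 0.929. The groups did not overlap for Mycl either. Among the 10 genes of the Myc network 0 passed, 4 had an unadjusted p under 0.05, against 17.8% of all genes, and the list median was 0.02. Mxd1 was the 1 on the higher side, and the 3 on the lower side were Mycl, the Mxd1 relative Mxd4 at -0.39 and Mga, another E-box factor that binds Max, at -1.03. Of 14 other known Myc targets 0 passed, 5 had an unadjusted p under 0.05, and the median was -0.20. Knockout arrays 1 and 2 were both above arrays 3 and 4 for 4 of the 10 and for 5 of the 14 (35.7%), against 41.4% of genes with a mean level of 4 or over.

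Further genes of the pathway were read the same way. Of 49 other small subunit factors 0 passed, 1 was higher and 9 lower at an unadjusted p under 0.05, and the median difference was -0.22. Array 3 was below every wildtype array for 39 of the 49 and array 4 for 34, or 79.6% and 69.4%, where genes with a mean level of 4 or over had 38.7% and 45.6%. Ngdn, a processome protein, differed by -0.59 and Utp4, a scaffold of the same complex, by 0.34, with limma adjusted p values of 0.143 and 0.183. Of 42 other large subunit factors 0 passed, 1 was higher and 2 lower at the unadjusted mark, and the median was -0.08. Array 3 was below the wildtype range for 23 of them (54.8%) and array 4 for 21 (50%), the latter near that background. The 10 other snoRNP proteins and assembly factors all had negative differences, with a median of -0.22, 0 passed and 1 at the unadjusted mark. With quantile normalization 7 of the 10 were negative, and the medians of these 3 lists were -0.10, 0.04 and -0.14. On the deposited scale their shares at the unadjusted mark were 20.4%, 7.14% and 10%, against 17.8% of all genes. Of genes with a mean level of 4 or over 25.3% met it. Knockout arrays 1 and 2 were both above arrays 3 and 4 for 37, 25 and 8 of their genes. These are 75.5%, 59.5% and 80%, against 41.4% of genes with a mean level of 4 or over.

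On knockout arrays 1 and 2 the median gap of the other small subunit factors was 0.06 and -0.05, and that of the other large subunit factors 0.24 and 0.15. Genes with a mean level of 4 or over had -0.02 and -0.05 there. Of 12 measured genes of the RNA polymerase I machinery 0 passed, 1 had an unadjusted p under 0.05 and the median was -0.20. That gene was Taf1a, a subunit of the promoter selectivity factor. It read 4.33, 4.21, 3.79 and 3.95 in knockout and 4.70 to 6.09 in wildtype, and its difference of -1.10 had a limma adjusted p of 0.0700. Polr1a, the largest polymerase subunit, differed by 0.19, Ubtf by -0.03, Rrn3 by -0.01 and Tcof1 by 0.43, with limma adjusted p values of 0.565, 0.884, 0.987 and 0.331. The initiation factor Rrn3 read 7.13, 6.96, 6.35 and 6.15 on knockout arrays 1 to 4 against 6.44 to 7.07 in wildtype, the order seen in most members and in 7 of these 12 genes. The nuclear exosome, which trims the precursor RNA, had 0 of 15 genes past the threshold, with a median of -0.21. At an unadjusted p under 0.05, 5 (33.3%) were lower, against 10.7% of all genes. Among genes with a mean level of 4 or over 18.3% were. All knockout arrays lay below all wildtype arrays for Exosc1, Exosc5 and Exosc7, and for 5.14% of all genes. Knockout arrays 1 and 2 were both above arrays 3 and 4 for 10 of the 15 (66.7%). This order held for 41.4% of genes with a mean level of 4 or over.

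**Figure D5:**
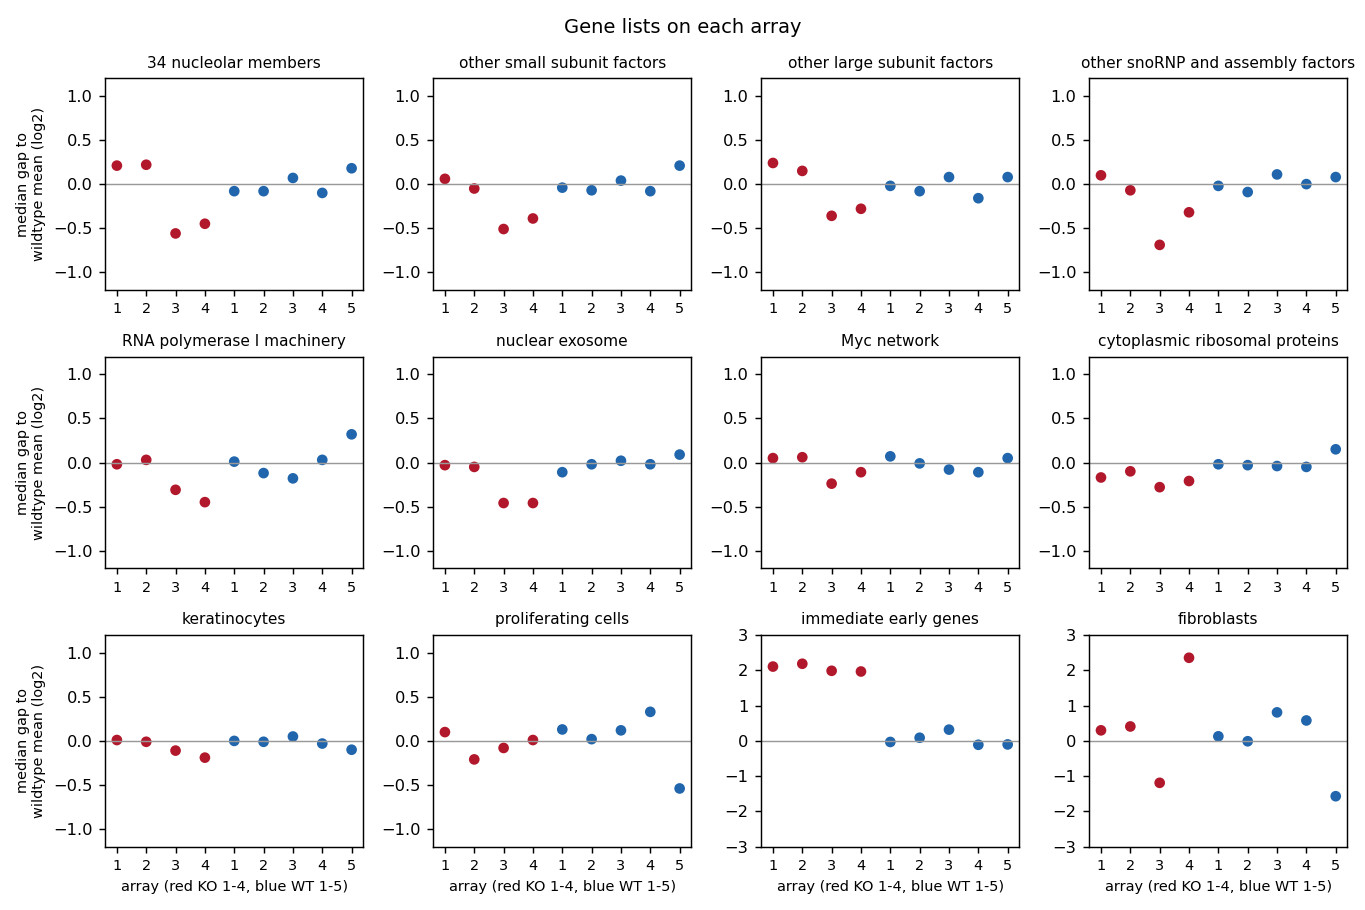
Median gap to the wildtype mean (log2, vertical axes) of the members and of 11 other gene lists on each array (red, knockout 1 to 4; blue, wildtype 1 to 5); the last pair has a wider axis. The ribosome biogenesis lists are low on knockout arrays 3 and 4. There the median gap of genes with a mean level of 4 or over was -0.14 and -0.21. The immediate early genes lie between 1.97 and 2.19 on all 4 knockout arrays.

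Nucleolar factors assemble the cytoplasmic ribosomal proteins with the ribosomal RNA, and 43 of 76 listed genes for these proteins had a probe set of their own. Their differences were small, from -0.44 to 0.24 with a median of -0.21, and 38 of 43 were negative, where the median of all genes with a mean level of 4 or over was -0.10. In limma 0 passed and 16 (37.2%) were lower at an unadjusted p under 0.05, against 10.7% of all genes. Among genes with a mean level of 4 or over 18.3% were lower at this mark. In either direction, the groups did not overlap for 12.1% of those brighter genes. All 4 knockout arrays lay below all wildtype arrays for 18 of the 43, against 5.14% of all genes. With quantile normalization that count was 10, against 4.49% of all genes, the median was -0.12 and 31 were negative. Rps3a1, a small subunit protein, read 12.88, 12.89, 12.64 and 12.76 in knockout against 13.08 to 13.43 in wildtype. Rps9 read 12.03, 11.96, 11.56 and 11.88 against 12.13 to 12.43. The list gap on knockout arrays 1 to 4 was -0.17, -0.10, -0.28 and -0.21, so arrays 1 and 2 were low here too. Genes with a mean level of 4 or over had -0.02, -0.05, -0.14 and -0.21. Arrays 1 and 2 were both above arrays 3 and 4 for 18 of the 43 (41.9%), near the 41.4% of those brighter genes.

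Faults in ribosome assembly are known to activate p53, and its targets were followed for that reason. Trp53, the gene of p53 itself, was listed too but is not among the 10 measured genes. Of these 10 genes 1 passed and was lower, where 0.731% of all genes were. This was Trp53inp1, a p53-induced gene of autophagy and cell death, at 9.47, 9.85, 9.75 and 9.14 in knockout and 10.31 to 11.04 in wildtype, with a difference of -1.26 and a limma adjusted p of 0.0126. Cdkn1a, the inhibitor p21, read 11.37, 11.52, 11.42 and 11.39 in knockout and 10.55 to 11.32 in wildtype. Its groups did not overlap, but the difference of 0.67 had a limma adjusted p of 0.0759. Mdm2, the ubiquitin ligase of p53, read 8.26, 8.19, 7.0 and 6.88 on knockout arrays 1 to 4 against 7.07 to 7.57, with a difference of 0.33 and a limma adjusted p of 0.565. Ccng1, another gene of the list, differed by -0.71, with a limma adjusted p of 0.225. At an unadjusted p under 0.05, 1 gene was higher and 2 were lower, or 30%, against 17.8% of all genes. Mdm2 had the order of most members, while Cdkn1a was even over the knockout arrays. That order was shown by 7 of the 10 genes (70%), against 25.6% of all genes and 41.4% of those with a mean level of 4 or over.

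Other measures were set beside the order of the knockout arrays. The 12 immediate early genes all rose in knockout (limma adjusted p of 0.05 as threshold), with a median difference of 2.08 and a list mean of 9.76 to 9.96 on the 4 knockout arrays. With the Xist level as a covariate 5 of the 12 passed, and all 12 were higher at an unadjusted p under 0.05. Among them Nr4a1 rose by 3.09, Fosb by 2.97, Atf3 by 2.57, Egr1 by 2.31, Junb by 2.18 and Zfp36 by 2.09. Proliferation markers had a list mean of 4.55 to 4.84 in knockout and 4.22 to 5.02 in wildtype, with 0 of 13 at an unadjusted p under 0.05. Keratinocyte markers had list means of 11.72, 11.62, 11.58 and 11.46 on knockout arrays 1 to 4 and 11.55 to 11.93 in wildtype. Of these 9 markers 0 passed, and at the unadjusted mark 1 was higher, the cornified envelope gene Ivl at 0.50, and 2 were lower, Flg at -0.28 and the basal cell factor Trp63 at -1.42. The basal keratins Krt5 and Krt14 differed by -0.34 and 0.01, with limma adjusted p values of 0.652 and 0.989.

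Markers of other cells varied between arrays. Fibroblast markers had a list mean of 5.95 on knockout array 3 and 9.32 on array 4, against 7.34 on both other knockout arrays and 5.61 to 7.86 in wildtype. Smooth muscle markers had a list mean of 3.65, 3.79, 3.91 and 6.28 on knockout arrays 1 to 4 and of 3.5 to 4.0 in wildtype. Knockout arrays 3 and 4 both lay on one side of arrays 1 and 2 in the keratinocyte and smooth muscle lists above and in 4 further lists. These were the adipocyte list, at 4.39, 4.45, 3.94 and 4.03, the melanocyte list, at 4.62, 4.56, 4.95 and 5.35, the endothelial list, at 3.03, 3.28, 3.36 and 3.45, and the hair follicle list, at 4.76, 5.01, 5.18 and 5.72. Their wildtype ranges were 3.99 to 7.62, 3.48 to 4.88, 3.14 to 3.55 and 5.39 to 6.12. Langerhans cell and macrophage markers lay at 5.64 to 5.99 over the knockout and 4.80 to 6.74 over the wildtype arrays, and T cell markers at 3.44 to 3.61 and 3.16 to 3.84. None of the genes of these 8 lists passed, and their part in the members' values was not tested.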

How the data were processed

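Trunk epidermis of newborn mice was measured on 9 arrays, 4 knockout and 5 wildtype, grouped by sample title. The deposited table holds 1 log2 value per array for each of 45037 probe sets. Per the submitters' processing notes affy was used; its version and the steps of background correction, normalization and summary were not given in the sources. Values from 1.43 to 14.46 point to a log2 scale and were used as deposited. There is no read depth on arrays, so precision depends on how many there are.

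Of the probe sets, 34945 name 1 gene in the platform annotation, 932 name several and 9160 are not listed. Gene numbers of 34741 matched the GRCm38.p6 gene table, which updated symbols and gave chromosomes. The brightest probe set stood for each of 18193 genes. The genotype term came from lmFit and eBayes (limma 3.58.1, R 4.3.3), with Benjamini-Hochberg adjustment over all genes. The code was tested on simulated data. Gaps are differences from the wildtype mean; intervals cover 95%.

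The members, the gene lists and the tests were chosen with earlier results of these data known. Values on every array were given for the member with the smallest unadjusted p in each role group, and for list genes past the threshold; other members and genes shown array by array were chosen after their values had been seen. Alternatives covered probe set choice, a level filter, normalization, eBayes settings, array weights, the Xist level, the replicate block, the threshold and each array left out.

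Replicate numbers 1 to 4 occur in both groups. Deviations of same-numbered arrays correlated at -0.21, -0.10, -0.21 and 0.18, so no pairing by number was seen. The labels give no pairing, and with so few arrays these correlations cannot exclude one. At most 124 probe sets had identical values on 2 arrays of the same group.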

Additional observations from a re-analysis of the deposited data

Results flagged for a closer look

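In 68 groups of values (34 members in 2 genotypes), 2 held an array far from the others of its group, where chance flags about 1 in 20. Dkc1 was at 7.71 on wildtype array 5, above 6.53 to 6.76 on the other wildtype arrays. Ddx18 was at 4.24 on knockout array 4, below 5.26 to 5.34 on arrays 1 to 3.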

How the results depend on the processing

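The count of members past the threshold was 0 under most alternatives and 0 whichever array was left out. It was 1 with the level filter and 1 at an adjusted p of 0.1, both times Mybbp1a, lower. With array weights it was 4, namely Fbl, Wdr43 and Bop1 higher and Mybbp1a lower; the weights were 0.323 and 0.313 for knockout arrays 3 and 4 and 3.37 for knockout array 2. The number of members with an unadjusted p under 0.05 was 2 with each gene's probe sets averaged, 2 without the less specific ones, 15 with array weights and 1 with the Xist covariate, again Mybbp1a. Of all genes, 17.7%, 17.3%, 24.1% and 7.22% met this mark under the same settings, in that order. The members' number ranged from 3 to 7 over the arrays left out. All 7 were lower when knockout array 1 was left out, and 4 were higher and 3 lower when knockout array 3 was. In these fits 20.7% and 15% of all genes met the mark, so 7 of 34 members was near the background in the first. The members' number was 13 with knockout arrays 3 and 4 left out together, 12 of them higher, against 12.3% of all genes. That setting was chosen after seeing the data and keeps the arrays on which the members were high. The members' median difference ranged from -0.23 to 0.23 and thus changed sign with the setting. The pooled SD of the members' median gap over single arrays was 0.29, which is not the uncertainty of a group difference. For the 7 members named by rule, 139 differences were recomputed: 132 kept their direction and their side of the threshold, 5 moved past it (Mybbp1a 3 times, Fbl and Wdr43 with array weights) and 2 reversed, Wdr43 at -0.08 with the mean of probe sets and Fbl at -0.09 without the less specific ones. Over all genes the 226 calls became 1644 with array weights, 9 with the Xist covariate, 571 at an adjusted p of 0.1, and 62 to 281 with an array left out. With the replicate block, which has no basis in the labels, 119 genes and 0 members passed. In that fit 3 members had an unadjusted p under 0.05, against 13.8% of all genes. Members with knockout arrays 1 and 2 both above 3 and 4 numbered 19 with quantile normalization and 23 to 29 under the other settings, all tried after the data had been seen. Without the less specific probe sets it was 24 of only 30 members. The order held for 22.2% of all genes with quantile normalization and for 23.9% to 35.4% under the other settings. For genes with a mean level of 4 or over the shares were 26.1% and 33.1% to 51.3%.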

Other observations

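The probe set that names Mrto4 together with its pseudogenes read 6.76, 6.68, 6.62 and 6.58 on knockout arrays 1 to 4 and 6.55 to 6.72 on the wildtype arrays.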
